A study of Mus musculus with 4 samples.

Results

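Open chromatin in myoblasts is spread unevenly, and some distal sites lie close together. Dense clusters of such sites were chosen by their spacing in the WT peak list. A distal peak had its centre in an intron or in intergenic sequence, outside every exon and outside promoters (1000 bp upstream to 100 bp downstream of any transcription start). Distal peaks were chained when neighbouring centres lay at most 12500 bp apart, and chains of 4 or more peaks were kept. This gave 1298 peaks in 285 clusters, which is 7.27% of the 17866 distal WT peaks and 5.04% of all 25775 WT peaks. The spacing and the number of peaks chose the clusters and are given as a description, whereas overlap with Tet2 KO peaks, sequence and nearest genes were not used by the rule.

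The peaks come from ATAC-seq, in which the enzyme Tn5 inserts sequencing adapters where DNA is accessible. The labels give 2 samples each of WT and Tet2 KO primary myoblasts, and 5000 cells went into a library. The cells were satellite cells sorted from hindlimb muscle of C57BL/6 mice and grown for 3 days, and the study's methods give male mice of 8 to 10 weeks as the standard. The Tet2 KO is constitutive, with exon 3 of the dioxygenase gene Tet2 deleted in every cell of the mouse, and WT mice served as controls. The labels give no treatment for either group. The cells are cultured myoblasts, not satellite cells in muscle. Only 1 peak list for each genotype was analysed here, and neither list could be tied to a replicate. There is therefore no replicate error, no difference between genotypes was tested, and the Wilson 95% intervals cover counting error only. Both lists skip peak numbers, 9707 in WT and 4403 in Tet2 KO, so each is a part of the peaks called. Strength is given in fragments at the summit, recovered from the peak caller's values, and as fold enrichment, which is (fragments at the summit + 1) divided by (fragments of the local background + 1). Genome-wide, the background was 0.649 fragments for WT and 1.38 for Tet2 KO. Of 9 myoblast markers only 4, among them Myod1, Chrna1 and Des, had a promoter peak in both lists. Of the markers of other cells, 1 of 6 endothelial genes (Pecam1) had a WT promoter peak, as did 0 of 5 haematopoietic, 0 of 6 fibroblast, 0 of 4 neural and 0 of 4 pericyte genes.

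Enhancers are distal elements that raise transcription of a gene on the same chromosome, and groups of them near 1 gene are common at genes that define a cell type. In myoblasts, MyoD and other myogenic factors bind the E box, AP-1 (Fos and Jun dimers) binds many inducible enhancers, and RUNX and TEAD factors bind beside them. Tet enzymes oxidise methylated cytosine in CpG pairs as a step of DNA demethylation. Distance to a gene does not show that a peak acts on it, so a cluster is named here by the nearest start of a protein-coding gene for position only.

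To show what the members look like, 200 bp around the summit of the highest peak of 10 named clusters are printed below from the mm9 reference, plus strand, 5′ to 3′. They are the peaks with the most summit fragments in clusters with many peaks (Zmiz1, 4831426I19Rik, Shb, Tnc), at transcription factors and a lamin (Runx1, Tead1, Myod1, Lmna) and at surface receptors (Fgfr4, Cd44). Capitals mark the AP-1 motif TGANTCA, which reads the same on both strands, and the E box CAGCTG, which also does.
Zmiz1, chr14:26346894-26347093: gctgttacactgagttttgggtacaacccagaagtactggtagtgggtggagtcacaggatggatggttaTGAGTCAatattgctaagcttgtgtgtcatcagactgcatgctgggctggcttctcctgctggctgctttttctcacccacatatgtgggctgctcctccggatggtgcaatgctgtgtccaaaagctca
4831426I19Rik, chr12:106221701-106221900: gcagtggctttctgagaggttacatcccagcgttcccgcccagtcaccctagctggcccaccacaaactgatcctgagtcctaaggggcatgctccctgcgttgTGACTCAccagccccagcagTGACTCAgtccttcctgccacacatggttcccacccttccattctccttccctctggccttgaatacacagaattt
Shb, chr4:45486192-45486391: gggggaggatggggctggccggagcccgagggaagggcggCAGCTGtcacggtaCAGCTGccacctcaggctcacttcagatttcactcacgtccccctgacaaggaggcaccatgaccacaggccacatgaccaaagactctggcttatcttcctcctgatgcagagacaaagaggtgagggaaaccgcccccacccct
Tnc, chr4:63744979-63745178: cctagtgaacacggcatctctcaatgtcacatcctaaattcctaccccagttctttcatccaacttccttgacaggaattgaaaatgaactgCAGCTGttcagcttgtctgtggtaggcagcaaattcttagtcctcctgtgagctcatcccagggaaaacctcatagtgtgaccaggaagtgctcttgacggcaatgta
Runx1, chr16:92621045-92621244: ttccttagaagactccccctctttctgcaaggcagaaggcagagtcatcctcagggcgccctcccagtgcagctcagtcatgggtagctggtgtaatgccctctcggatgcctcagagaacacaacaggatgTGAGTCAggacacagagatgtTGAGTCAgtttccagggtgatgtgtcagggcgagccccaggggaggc
Tead1, chr7:119967304-119967503: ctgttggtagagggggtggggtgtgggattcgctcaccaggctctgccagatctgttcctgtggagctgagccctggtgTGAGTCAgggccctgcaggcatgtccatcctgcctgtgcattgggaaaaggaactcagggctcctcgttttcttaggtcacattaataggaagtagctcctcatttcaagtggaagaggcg
Lmna, chr3:88296378-88296577: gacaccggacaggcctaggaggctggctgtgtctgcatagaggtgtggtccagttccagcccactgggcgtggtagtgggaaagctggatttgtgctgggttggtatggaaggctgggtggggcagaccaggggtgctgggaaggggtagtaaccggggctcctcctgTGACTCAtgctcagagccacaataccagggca
Myod1, chr7:53596800-53596999: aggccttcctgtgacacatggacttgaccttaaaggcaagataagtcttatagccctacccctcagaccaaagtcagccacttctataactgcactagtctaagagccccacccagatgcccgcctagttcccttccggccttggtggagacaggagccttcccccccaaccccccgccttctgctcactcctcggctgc
Fgfr4, chr13:55272964-55273163: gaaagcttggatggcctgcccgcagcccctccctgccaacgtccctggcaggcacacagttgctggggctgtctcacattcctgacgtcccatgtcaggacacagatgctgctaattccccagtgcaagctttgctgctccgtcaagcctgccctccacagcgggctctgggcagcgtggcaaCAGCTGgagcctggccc
Cd44, chr2:102784222-102784421: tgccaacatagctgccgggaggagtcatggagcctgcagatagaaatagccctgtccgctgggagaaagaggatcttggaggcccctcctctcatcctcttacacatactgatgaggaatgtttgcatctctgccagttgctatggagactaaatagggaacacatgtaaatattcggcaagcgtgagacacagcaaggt
The AP-1 motif was found 2 times at 4831426I19Rik and Runx1 and 1 time at Zmiz1, Tead1 and Lmna. The E box CAGCTG was found 2 times at Shb and 1 time at Tnc and Fgfr4. The Myod1 and Cd44 windows held neither, and each had 4 CpG pairs. A Tet2 KO peak overlapped the printed peak in 9 of the 10 clusters, the exception being 4831426I19Rik, whereas over all clusters the highest peak had one in 43.5%.

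Of the 285 clusters, 179 had 4 peaks, 68 had 5, 27 had 6, 8 had 7 and 3 had 8. Just below the limit, 563 chains held 3 peaks, with a median span of 10796 bp and a median sum of 54 summit fragments. The 179 chains of 4 had a median span of 16022 bp and 78 fragments. The clusters spanned 2331 to 57210 bp (median 17967 bp), together 5.47 Mb, of which the peaks covered 0.316 Mb. The median gap between neighbouring centres was 5458 bp. Of the 1013 gaps, 193 were under 1000 bp and 146 were over 10000 bp, so the clusters held both closely and widely spaced sites. All peaks were intronic in 137 clusters and intergenic in 101, and 47 clusters were mixed. In 126 clusters every peak lay within the same protein-coding gene, and in 112 no peak lay in one. The nearest start was 74 to 496889 bp away (median 28728 bp).

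Clusters were found on each of the 19 autosomes and not on X, where the longest chain of the 236 distal peaks held 3. Chromosome 19 was the densest, with 29.3 clusters per 100 Mb and 14.8% of its distal peaks clustered. Chromosome 14 had the fewest, 7.99 per 100 Mb. The 285 clusters lay nearest to 272 genes, and 12 genes had more than 1 cluster. Fam92b had 3, all within the overlapping gene Gm20388 and upstream of Fam92b. The transcription factors Runx1, Tead1 and Cux1, the TGF-beta inhibitor Smad7, the RNA-binding proteins Msi2 and Zfp36l2, the motor protein Myo10 and 4 further genes (Azin1, Dnajb12, Trim8, Zcchc24) had 2 each. Of the 272 genes, 110 (40.4%, interval 34.8 to 46.4%) had a WT promoter peak, against 34.1% (33.0 to 35.2%) of 7255 genes nearest to other distal peaks only. Of those promoter peaks, 25 of 110 (22.7%, interval 15.9 to 31.4%) and 658 of 2473 (26.6%, interval 24.9 to 28.4%) had a Tet2 KO promoter peak, so the intervals overlapped.

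Most of the clustered sites open in WT myoblasts had no listed peak in Tet2 KO, and the same held over all WT peaks. A Tet2 KO peak overlapped 198 of the 1298 clustered peaks by at least 1 bp (15.3%, interval 13.4 to 17.3%), and 1100 had none. The background over all WT peaks was 14.1%, and over all distal WT peaks it was 11.0%. The 16568 other distal peaks had 1762 overlaps (10.6%, interval 10.2 to 11.1%), which is 4.62 percentage points less than the clustered peaks (interval of the difference 2.71 to 6.73). Fewer cells with an open site and a site that is less open in each cell cannot be told apart in these libraries. A called site left out of the Tet2 KO list, which skips 4403 peak numbers, would also count as having no peak. By chain size the share was 9.83% for single peaks, 11.7% in chains of 2, 13.0% in chains of 3, 16.3% in chains of 4, 14.4% in chains of 5 and 13.2% (interval 9.52 to 18.1%) in chains of 6 or more. The share was thus higher at each step from 1 to 4 peaks, and the intervals of the chains of 4, of 5 and of 6 or more overlapped. Intronic and intergenic clustered peaks had nearly the same share, 15.2% (interval 12.8 to 17.9%) and 15.3% (12.6 to 18.6%).

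**Figure D1:**
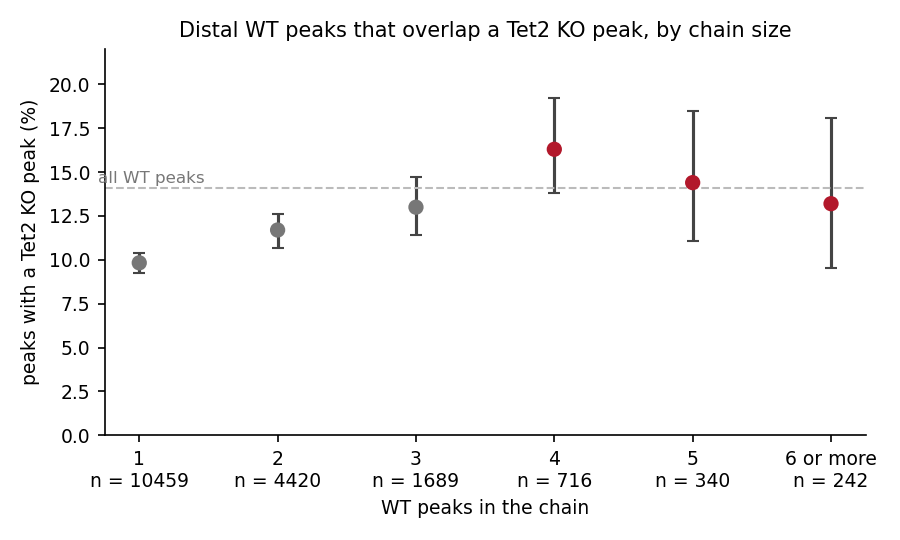
Share of distal WT peaks overlapped by a Tet2 KO peak (%, vertical axis) by the number of WT peaks in the chain (horizontal axis, with the number of peaks). Points are shares, bars Wilson 95% intervals, red points the clusters and the dashed line the share over all WT peaks; the share goes from 9.83% for single peaks to 16.3% in chains of 4.

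There were 4 clusters that stood apart and bear on these shares, as each held a peak with over 50% of its 31-mers repeated in the reference or with over 100 summit fragments. At Gm11168 on chromosome 9 (3001408 to 3007358), on average 99.7% of the 31-mers of the 4 peaks were repeated. The cluster named Pgk2 on chromosome 17 (39980065 to 39984939) was intergenic and lay 363052 bp from the Pgk2 start. Its 4 peaks had 103, 87, 84 and 90 fragments over a local background of up to 42.5, so their fold enrichment was 1.96 to 2.57. These were the only 2 clusters in which every peak overlapped a Tet2 KO peak. The others lay near Gm5614, with 1 peak of 142 fragments, and near Nt5e. Without these 4 clusters, 186 of 1280 peaks (14.5%, interval 12.7 to 16.6%) had a Tet2 KO peak. Without the 79 other distal peaks of the same kind the comparison share was 10.5% (interval 10.1 to 11.0%).

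The direction of that comparison depended on how peak strength was measured. Clustered peaks had a lower fold enrichment than other distal peaks (median 7.32 against 7.88), more fragments at the summit (19 against 15) and a higher local background (1.59 against 0.970 fragments). The local background enters the fold but not the fragment number. Within each of 5 groups of fold enrichment the clustered peaks had the higher share, from 3.64% against 1.18% in the lowest to 42.6% against 32.7% in the highest. The intervals of the 2 sets did not overlap in any of these groups. Within each of 5 groups of summit fragments they had the lower share, with overlapping intervals in every group. It was 0% (0 of 139, interval up to 2.69%) against 0.321% at 6 to 11 fragments, 5.71% (interval 3.64 to 8.85%) against 9.74% (8.73 to 10.9%) at 18 to 22, and 42.5% (37.8 to 47.3%) against 45.3% (43.5 to 47.1%) at 23 to 142. Weighted to the fold enrichment of the clustered peaks, the other distal peaks had a share of 7.94%. Weighted to their summit fragments, a weighting chosen after seeing the data, they had 18.3%, above the 15.3% of the clustered peaks.

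**Figure D2:**
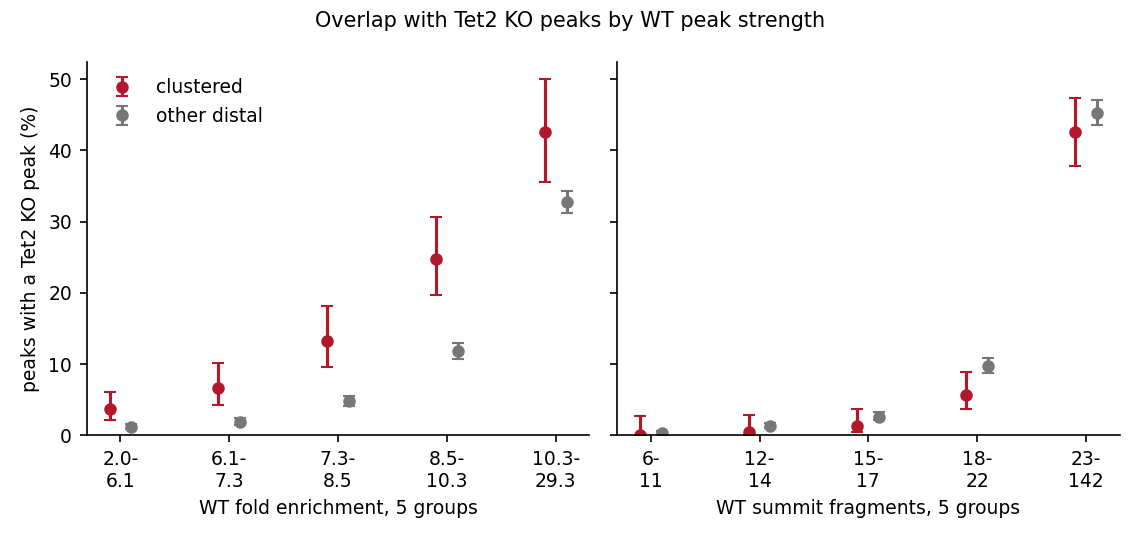
Share of distal WT peaks with a Tet2 KO peak (%, vertical axis) in 5 groups of WT fold enrichment (left) and of WT summit fragments (right). Points are shares and bars Wilson 95% intervals, red for clustered and grey for other distal peaks; red lies above grey in all groups on the left and below it in all groups on the right.

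Within clusters, the Tet2 KO peaks lay mostly at the strongest WT sites. Of the 285 clusters, 136 (47.7%, interval 42.0 to 53.5%) had no peak overlapped by a Tet2 KO peak, 111 had 1, 29 had 2, 7 had 3 and 2 had 4. The share over all clustered peaks was 15.3%, and whether these counts differ from what that share gives was not tested. Ranked by summit fragments, the highest peak of a cluster overlapped a Tet2 KO peak in 124 of 285 clusters (43.5%, interval 37.9 to 49.3%). The share was 16.8% for the next, 6.32% and 2.46% for those of rank 3 and 4, and 0.633% (1 of 158) for those of rank 5 and lower. The median summit fragments of these ranks were 27, 21, 18, 14 and 14. Place in the cluster showed no such order, with 16.1% (interval 13.3 to 19.4%) for the 2 outermost peaks and 14.6% (12.2 to 17.3%) for those between them. The clustered peaks with a Tet2 KO peak had a median of 31 WT fragments and those without had 17. Among other distal peaks these medians were 27.5 and 14, so the higher overlap at stronger sites was not particular to clusters. The weakest distal Tet2 KO peak had 7 fragments and the median one 15. The Tet2 KO list skipped at least 1 peak number in the interval around 123 of the 136 clusters and none around 12, with 1 not determined, and for the skipped numbers the position is not known. The part of depth and of the unlisted peaks in the clusters without a Tet2 KO peak was not tested. No Tet2 KO peak lay inside a cluster without overlapping a WT peak.

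**Figure D3:**
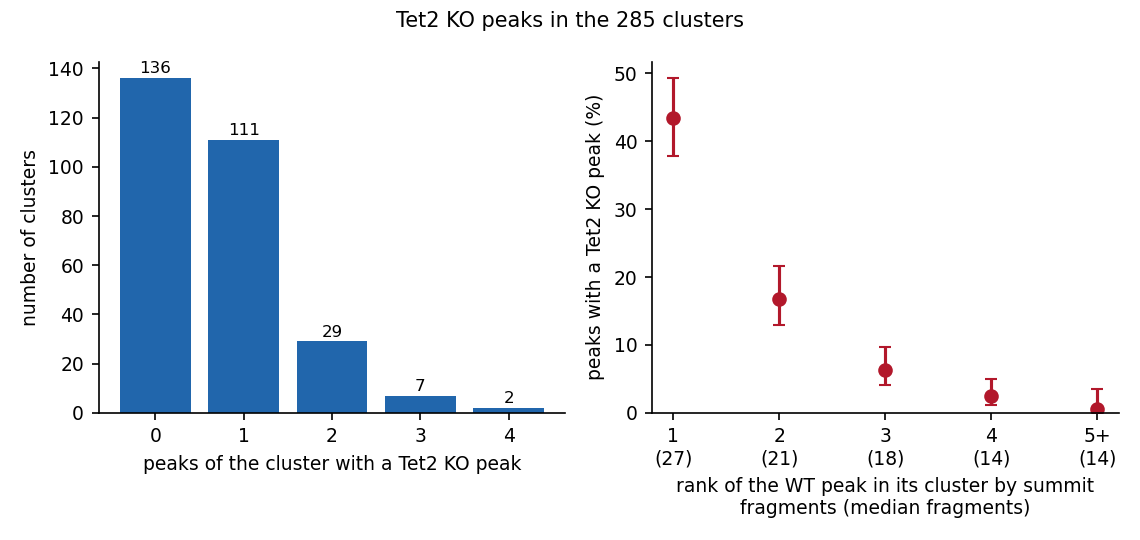
Left, number of clusters (vertical axis) by how many of their peaks overlap a Tet2 KO peak. Right, share of WT peaks with a Tet2 KO peak (%, with Wilson 95% intervals) by rank of the peak in its cluster by summit fragments; it falls from 43.5% for the highest peak to 0.633% for rank 5 and lower.

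Where a clustered site was listed in both genotypes, it was mostly weaker over its background in Tet2 KO. The ratio of the Tet2 KO to the WT fold enrichment had a median of 0.593 (quartiles 0.484 and 0.690) over the 198 clustered pairs and of 0.516 (0.442 and 0.607) over 1762 other distal pairs. The Tet2 KO library had the higher genome-wide background, and its part in this ratio was not tested. The shared sites had a median WT fold of 9.51 in clusters and 11.1 among other distal peaks. The Tet2 KO peaks at these sites had a similar median fold, 5.40 and 5.62. The fold enrichment was higher in Tet2 KO at 38 of the 1762 other distal peaks (2.16%) and at 8 of the 198 clustered peaks (4.04%). Of the 8 clustered peaks, 2 each lay in the Gm11168 and Stmn2 clusters and 1 in that of Pgk2. At Stmn2 (chromosome 3, 8245318 to 8252738) the WT peaks had 21, 15, 24 and 17 fragments. The first 3 had 38, 25 and 46 in Tet2 KO, with up to 46.6% of their 31-mers repeated. Their fold enrichment was 9.32, 6.87 and 10.8 in WT and 9.96, 6.66 and 12.1 in Tet2 KO, so that of the second was lower in Tet2 KO. The remaining 3 had no repeated 31-mers and lay near R3hcc1 (26 WT and 34 Tet2 KO fragments, fold 4.34 and 6.52), Map3k4 (24 and 23 fragments, fold 8.50 and 8.66) and Trim8 (21 and 22 fragments, fold 5.53 and 5.70). The R3hcc1 cluster lay in introns of Loxl2, 45590 bp from the R3hcc1 start.

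The largest cluster by peaks and span lay in the introns of Zmiz1, a transcriptional coregulator of the PIAS family (chromosome 14, 26295566 to 26352775, 57210 bp). Its 8 peaks had 32, 21, 24, 17, 18, 26, 34 and 14 WT summit fragments in genome order. Tet2 KO peaks of 13 and 14 fragments overlapped the sixth and the seventh of them. The seventh was the highest, while the first, nearly as high at 32 fragments, had no listed Tet2 KO peak. The 8 peaks in introns of 4831426I19Rik (chromosome 12, 106211148 to 106241683) had 14 to 31 fragments, 4 of them between 27 and 31, and none had a Tet2 KO peak. In the introns of Shb, an adapter protein of receptor tyrosine kinases (chromosome 4, 45448976 to 45486389), 7 of the 8 peaks had 13 to 19 fragments and no Tet2 KO peak. The eighth had 35 WT fragments and 18 in Tet2 KO, and carried the 2 E boxes printed above.

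Clusters of 6 and 7 peaks also ranged from none to several sites with a Tet2 KO peak. Upstream of Tnc, which encodes the matrix glycoprotein tenascin C (chromosome 4, 63707918 to 63745213, in introns of transcripts outside protein-coding genes), only the last and highest peak, with 31 WT fragments, had a Tet2 KO peak, of 13 fragments. The cluster nearest to Tgif1, a homeobox repressor of TGF-beta signalling (chromosome 17, 71069354 to 71103325), lay in introns of Dlgap1. Tet2 KO peaks lay at 3 of 7 sites, which had 26, 40 and 22 WT and 15, 20 and 17 Tet2 KO fragments, and 6 of its 7 windows held the AP-1 motif. Near Azin1, a regulator of polyamine synthesis, 2 of 7 sites had a Tet2 KO peak, and near Wisp1 (a secreted matricellular protein), Zfp36l2 (an mRNA decay factor) and Zbtb7c (a zinc finger protein) 1 of 7 did. Near the scaffold protein gene Dlg1 and the ubiquitin ligase gene Trim8, 0 of 7 sites did, with highest WT peaks of 32 and 31 fragments. The 6 sites at Dagla, which makes an endocannabinoid, had 12 to 26 fragments and none in Tet2 KO. Clusters whose highest WT peak had 31 or 32 fragments were thus found both with and without a Tet2 KO peak.

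**Figure D4:**
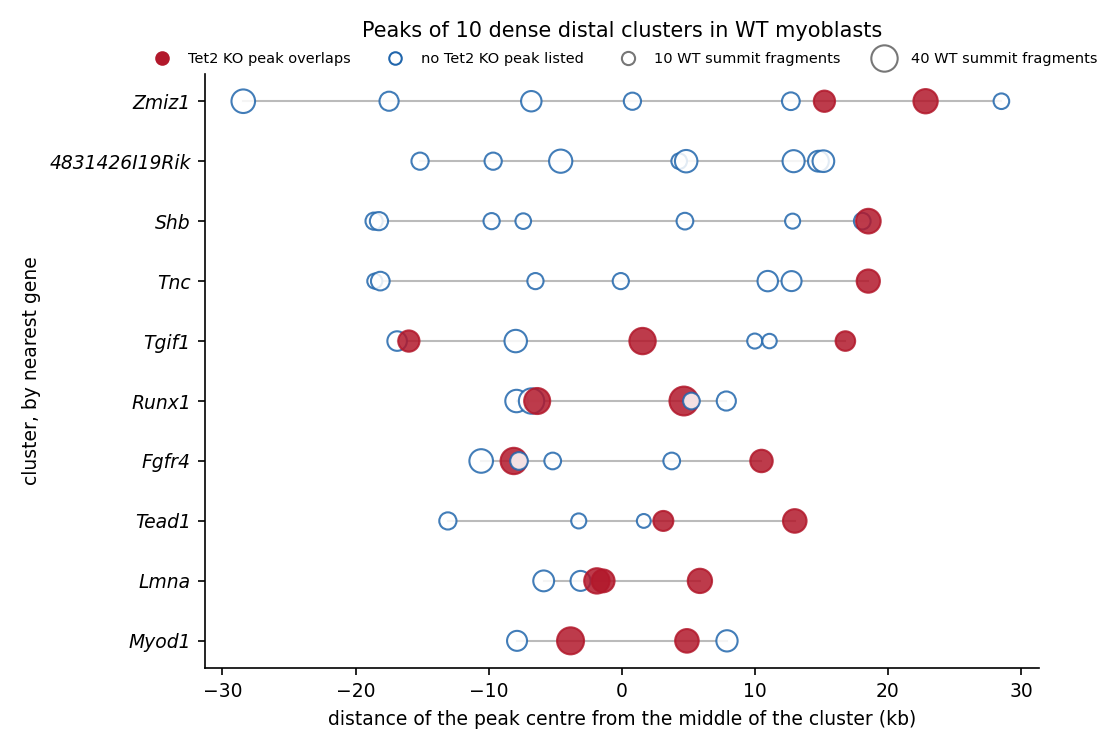
Positions of the WT peaks in 10 clusters (rows, by nearest gene) as distance from the middle of the cluster (kb, in genome order). Circle area is proportional to WT summit fragments, and filled red circles overlap a Tet2 KO peak. The red circles include the highest peak of 9 of the 10 clusters, and 4831426I19Rik has none. The 10 are a selection of the named clusters, and over all 285 clusters the highest peak had a Tet2 KO peak in 43.5%.

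Beside Gm5614, with its peak of 142 fragments, 3 sites with a Tet2 KO peak were found at AB041803, Lmna, Stmn2, Smndc1, Mreg and Tgif1. Lmna encodes the nuclear lamins A and C (chromosome 3, 88292401 to 88304386). Its 5 intronic peaks, each with an AP-1 motif, had 25, 23, 37, 30 and 34 WT fragments, and the last 3 had 22, 18 and 18 in Tet2 KO. Near Smndc1, a splicing factor gene (chromosome 19, 53482952 to 53496051), the peaks had 25, 25, 17 and 34 WT fragments, and all but the weakest had a Tet2 KO peak, of 12, 12 and 22 fragments. The 4 peaks near Mreg (chromosome 1, 72272848 to 72302371) had 26, 12, 32 and 36 WT fragments. There too all but the weakest had a Tet2 KO peak, of 18, 16 and 24 fragments, and none of the 4 windows held the AP-1, CAGCTG, TEAD or RUNX letters. Near AB041803 (chromosome 6, 31032029 to 31058304) the peaks of 31, 39 and 42 WT fragments had Tet2 KO peaks of 12, 27 and 20, and those of 20 and 19 had none.

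By gene list, 1.22% of the 22232 protein-coding genes were nearest to a cluster. Among 34 myogenic factors 2 were (Myod1 and Id1), and 4 of their 8 peaks had a Tet2 KO peak (50%, interval 21.5 to 78.5%). This share depends on how genes are assigned. A cluster of 6 peaks in introns of Nfix, also on the list, lay nearest to the start of G430095P16Rik and is not counted in it. Those peaks had 8 to 24 WT fragments, and 0 had a Tet2 KO peak. Myod1, the myogenic determination factor, had a cluster upstream, 30990 bp from its start (chromosome 7, 53592792 to 53608916). Its 4 peaks had 23, 42, 32 and 26 WT fragments, and the inner 2 had 23 and 18 in Tet2 KO. Id1, an inhibitor of MyoD and its E protein partners, had 4 peaks upstream (chromosome 2, 152552483 to 152567691) with 29, 33, 26 and 33 WT fragments, and the 2 peaks of 33 had 14 and 16 in Tet2 KO. At both genes the higher 2 of the 4 sites were thus the shared ones.

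Among 56 genes of AP-1, RUNX, TEAD and SRF factors and their early response targets, 8 (14.3%) had a total of 10 clusters by nearest start. Only 4 of their 48 peaks had a Tet2 KO peak (8.33%, interval 3.29 to 19.6%), and 8 of the 10 clusters had none. All 4 lay in 2 clusters. In introns of Runx1 (chromosome 16, 92608478 to 92624540) 6 peaks had 29, 37, 39, 48, 16 and 21 WT fragments, and those of 39 and 48 had 19 and 26 in Tet2 KO. The other Runx1 cluster, 140270 bp upstream of its start (chromosome 16, 92953046 to 92980116), had 5 peaks of 19 to 30 fragments and no Tet2 KO peak. In introns of Tead1, the DNA-binding partner of YAP (chromosome 7, 119941251 to 119967554), peaks of 23 and 32 WT fragments had 13 and 10 in Tet2 KO, and those of 17, 13 and 11 had none. Another Tead1 cluster of 4 peaks had none. The 6 peaks at Fosb, an AP-1 subunit (chromosome 7, 19893928 to 19924235), had 12 to 22 fragments and no Tet2 KO peak. The clusters at Vcl (vinculin), Dusp5 (an ERK phosphatase), Amotl1 and Wwtr1 (a YAP binding protein and the YAP paralogue TAZ) and Mkl1 (an SRF coactivator) also had none, with highest WT peaks of 31, 16, 26, 26 and 24 fragments.

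The list of 65 sarcomere and muscle membrane genes also held Vgll2, a TEAD cofactor of muscle. By nearest start, 2 of the listed genes had a cluster (3.08%). A cluster of 4 peaks in introns of Jph2, also on the list, lay nearest to the Tox2 start and is not counted. A Tet2 KO peak overlapped 1 of those 4. Near Vgll2, 1 of 5 peaks, the highest with 24 WT fragments, had a Tet2 KO peak of 12. Near Tnnt2, a troponin T gene, 5 peaks of 9 to 22 fragments had none. Of 87 matrix and adhesion genes 6 had a cluster by nearest start (6.90%), and 6 of their 27 peaks had a Tet2 KO peak (22.2%, interval 10.6 to 40.8%). The R3hcc1 cluster, with 5 peaks in introns of the listed gene Loxl2 and 2 of them with a Tet2 KO peak, is not counted. Upstream of Cd44, the hyaluronan receptor (chromosome 2, 102777081 to 102798969), the peaks of 30 and 32 WT fragments had 13 and 22 in Tet2 KO, and those of 21 and 22 had none. Tnc, Cdh13 (T-cadherin), Col18a1 and Lama5 (a collagen and a laminin chain) had 1 shared site each, and Col4a2 had 0. At Col18a1 the shared site, with 27 WT fragments, was not the highest, which had 39 and no Tet2 KO peak.

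Of 105 genes of growth factor, TGF-beta, Wnt and Notch signalling 7 had a total of 8 clusters (6.67% of the genes), with a Tet2 KO peak at 5 of 38 sites (13.2%, interval 5.75 to 27.3%). Downstream of Fgfr4, a fibroblast growth factor receptor of muscle progenitors (chromosome 13, 55270443 to 55291901), the 6 peaks had 32, 40, 18, 16, 16 and 29 WT fragments, and those of 40 and 29 had 17 and 13 in Tet2 KO. At Ski, a corepressor of SMAD proteins, the highest of 6 peaks (35 WT fragments) had a Tet2 KO peak of 17. The TGF-beta receptor gene Tgfbr2 had 1 shared site of 4, and the Smad7 clusters 0 of 5 and 1 of 4. Tcf7l2 and Tcf7l1, factors of Wnt signalling, and Smad3, a TGF-beta effector, had 0. Both Smad7 clusters lay in introns of Ctif, 84772 and 117161 bp from the Smad7 start. The Tgfbr2 cluster lay 201476 bp from its start. The list shares, by nearest start, rest on 8 to 48 peaks each. Apart from the myogenic factors their intervals include the 15.3% of all clustered peaks. The myogenic share leaves out the 6 peaks in Nfix, of which 0 had a Tet2 KO peak. The 8 peaks at Myod1 and Id1 all had 23 or more WT fragments, and of all clustered peaks of that strength 42.5% had a Tet2 KO peak, which lies within the interval of the myogenic factors.

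The AP-1 and RUNX motifs were less frequent under clustered peaks than under the other distal peaks, which include chains of 2 and 3. In the 200 bp around the summit, AP-1 (TGANTCA) was found in 37.4% of clustered peaks (interval 34.9 to 40.1%) and 45.2% of other distal peaks (44.5 to 46.0%). RUNX (TGTGGT, either strand) was found in 27.0% (24.6 to 29.4%) and 31.4% (30.7 to 32.1%). The E box CAGCTG was found in 42.4% (39.7 to 45.1%) and 39.5% (38.7 to 40.2%). These intervals overlapped, while the interval of the difference was 0.129 to 5.70 percentage points. TEAD (GGAATG, either strand) was found in 20.8% and 20.3%, and any E box (CANNTG, which includes CAGCTG) in 79.9% and 80.4%, with overlapping intervals. Over all WT peaks the shares were 34.1% for AP-1, 24.9% for RUNX, 33.2% for CAGCTG, 17.2% for TEAD and 71.7% for any E box. AP-1 was lower with each step from single peaks (47.3%) over chains of 2 (42.5%) and 3 (40%) to chains of 4 (37.3%), and was 38.8% (interval 33.8 to 44.1%) in chains of 5 and 36% (30.2 to 42.2%) in chains of 6 or more. CAGCTG showed no steady order, with 38.8%, 40.2%, 41.8%, 41.8% and 46.2% in chains of 1 to 5 and 38.8% in chains of 6 or more. Over the same steps the median GC content went from 50% for single peaks to 55.0% in chains of 6 or more. A weighting to the GC content of the clustered peaks was added after seeing the data. With it the difference in AP-1 went from -7.81 to -4.25 percentage points and that in RUNX from -4.41 to -2.44. The difference in CAGCTG went from 2.89 to -0.325.

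**Figure D5:**
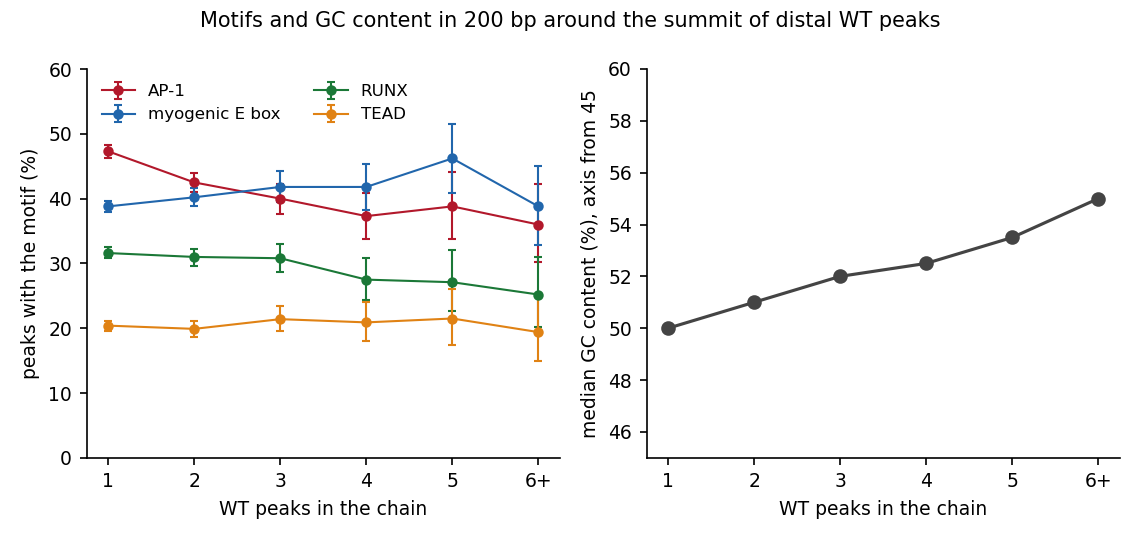
Left, share of distal WT peaks with a motif within 200 bp around the summit (%, vertical axis, with Wilson 95% intervals) by number of WT peaks in the chain. Right, median GC content (%, axis from 45); AP-1 is at 47.3% for single peaks, 38.8% in chains of 5 and 36% in chains of 6 or more, and GC content goes from 50% to 55.0%.

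Most clusters held AP-1 and CAGCTG, each in at least 1 peak. Each cluster has several peaks, and 37.4% of clustered peaks held AP-1 and 42.4% held CAGCTG. These shares by themselves put both motifs in many clusters. Whether the counts of clusters given next differ from what the shares give was not tested. AP-1 was present in at least 1 peak of 242 clusters and CAGCTG in at least 1 of 256, and 221 clusters had both, while 137 of the 1298 peaks (10.6%, interval 9 to 12.3%) held both motifs. Only 8 clusters had neither. Every peak held AP-1 in 8 clusters, among them Lmna, and every peak held CAGCTG in 10. Clustered peaks with AP-1 had a Tet2 KO peak in 18.1% of cases (interval 14.9 to 21.8%) and those without in 13.5% (11.4 to 16.1%). For CAGCTG the shares were 14.9% (12.2 to 18.1%) with and 15.5% (13.1 to 18.3%) without. The intervals overlapped in both comparisons. Among other distal peaks the shares with and without AP-1 were 10.7% and 10.6%. With and without CAGCTG they were 11.6% (10.8 to 12.4%) and 10% (9.46 to 10.6%), intervals that did not overlap.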

How the data were processed

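For alignment to mm9 (Bowtie2) the authors cut the ATAC-seq reads to 36 bp. Alignments under a mapping quality of 30 and duplicates (Picard) were removed, and MACS2 peaks were called sample by sample. The authors deposited 1 list per genotype, with a fold enrichment (a ratio with a pseudocount of 1), -log10 p, -log10 q and a summit for each peak. The smallest listed -log10 q was 2.18 in WT and 0.863 in Tet2 KO, so the lists reach down to different limits. Total read numbers are not given in these files. Genotypes were taken from the names of the lists. The fragments at each summit were recovered by solving the Poisson model of MACS2 for fold and -log10 p, to within 0.001 in -log10 p, for all 25775 WT and 3836 Tet2 KO peaks. The recovery, chaining and overlap steps were tested on simulated data. Features came from GENCODE release M1 and sequence from NCBIM37, which is mm9. Overlap needed 1 bp. As each genotype had 1 list, no p-value was computed. The members, the gene lists and the rules were chosen with earlier results of these data known. Named clusters were the 12 with the most peaks, the 8 with the most Tet2 KO overlaps, the 5 with the most summed fragments and up to 4 with the most peaks per gene list. Nt5e, R3hcc1, Map3k4, Tox2, the second Trim8 cluster and the further genes with more than 1 cluster or on a list were named after their values were seen. Clusters on chromosome 18 have no sequence printed. Alternatives were other distances, peak numbers, promoter and overlap definitions, strength limits, merging of peaks, and weighting by strength or GC content. Computations used Python 3.11.15 with pysam 0.24.0, pandas 2.3.3, numpy 2.4.6, matplotlib 3.10.9 and scipy 1.17.1. Some marker results are not reported here.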

Additional observations from a re-analysis of the deposited data

How the results depend on the processing

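A higher Tet2 KO share of clustered than of other distal peaks kept its direction under each alternative but 1. Weighting to summit fragments, chosen after seeing the data, gave other distal peaks 18.3% and a difference of -3.08 percentage points, and weighting to fold enrichment gave 7.94% and 7.31. A limit of 6000 bp left 59 clusters of 245 peaks with a share of 18.8%, a difference of 7.91 and 26 clusters without a Tet2 KO peak. A limit of 25000 bp gave 760 clusters of 3876 peaks, 374 of them without one. With 3 or more peaks there were 848 clusters of 2987 peaks, 506 without one. With 6 or more there were 38 clusters of 242 peaks, a share of 13.2%, a difference of 2.28 (interval -1.44 to 7.15) and 15 without one. The clustered and other shares were 10.5% and 7.99% (difference 2.56) at a fold of at least 5, 10.5% and 6.67% at a -log10 q of at least 5, and 11.2% and 7.21% with overlap of 50% of each peak. With a Tet2 KO peak within 1000 bp they were 20.6% and 11.8% (difference 8.81). The other share was 11.2% with peaks merged within 500 bp and 9.66% with the WT summit inside the Tet2 KO peak. Removing the 4 clusters with repeated or very deep peaks changed neither direction nor count by over 1.5 times. For motifs, the difference in CAGCTG was 6.55 over whole peaks and -0.325 weighted to GC content, that in AP-1 was -4.25 weighted to GC content, and that in TEAD was 2.94 over whole peaks. Clusters at listed genes numbered 1 (myogenic), 6 (AP-1, TEAD and SRF), 3 (matrix) and 3 (signalling) by the gene holding most peaks. By a start within 50000 bp they numbered 4 (myogenic), 6 (sarcomere), 6 (AP-1, TEAD and SRF), 7 (matrix) and 4 (signalling), so cluster names depend on how genes are assigned. The cause of these moves was not tested. No replicate could be left out, and read depth limits which sites a list can hold. No paired analysis was possible because neither list carries a replicate number.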
